A study of Mus musculus with 24 samples.

Results

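The retinal pigment epithelium (RPE) of mice with a floxed Ift20 gene and the Dct-Cre driver was compared between postnatal day 29 (P29) and postnatal day 11 (P11). The members are 8 libraries, 4 of P29 mutants and 4 of P11 mutants, taken by their labelled genotype and age, of 24 libraries in all. The other libraries came from mutants at 3 months and from controls at the same 3 ages, again 4 in each group. Control animals carried Dct-Cre too, so the recombinase is shared by every group, and Dct is a gene of pigment cells. All animals were of mixed strain background, sex was not collected, and no treatment was given. The labels number the libraries as biological replicates without saying whether 1 animal or a pool stands behind each. For genes, the p-values weigh a change against the spread between libraries within groups, estimated over all 24 libraries. Part of that spread may be technical. RNA of isolated cells was read as tags near the 3′ end of polyadenylated transcripts, and levels are CPM, that is counts relative to a library's gene total, scaled by TMM factors.

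The RPE is a pigmented cell sheet between the photoreceptors and the choroid. It turns all-trans retinol back into the 11-cis chromophore of the visual pigments, moves ions, water and metabolites across itself, and takes up shed tips of photoreceptor outer segments. Mouse photoreceptors grow their outer segments and the eyelids open during the weeks after birth. The IFT20 protein belongs to the intraflagellar transport machinery that moves cargo along cilia.

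Total gene counts of the 8 libraries ran from 1978838 to 2519882, and 13912 to 14709 genes had a count. The share of mitochondrial transcripts was 5.39% to 6.58% in the P29 mutants, against 10.2% to 11.1% in the P11 mutants. Entries assigned to no feature made up 20.6% to 21.1% in the P29 mutants, against 26.5% to 27.5% in the P11 mutants. Each of these shares was separate between the ages (exact two-sided permutation test over 70 assignments, p = 0.0286, the smallest this design allows, adjusted p = 0.0333 over 7 measures). Their part in the results was not tested.

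Of 17 tested RPE markers, 12 were higher at P29, 2 were lower and 3 were not called. Best1, a chloride channel gene often used as an RPE marker, had only 5 counts in the P29 mutants and 8 in the P11 mutants, so it was not tested. Markers of other cells were present as well. The 17 rod genes together made up 18220 to 19540 CPM in the P29 mutants, against 18210 to 18750 CPM in the P11 mutants. Erythrocyte genes summed to 3760 to 4037 CPM in the P29 mutants, against 28960 to 33400 CPM in the P11 mutants. Lens genes summed to 1653 to 1738 CPM in the P29 mutants, against 181.8 to 229.4 CPM in the P11 mutants. In bulk RNA, fewer cells of a type and less RNA per cell cannot be told apart.

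Between P29 and P11, 12303 genes were tested with the quasi-likelihood test of edgeR, and a call means a p below 0.05 after Benjamini-Hochberg adjustment. In the mutants 2022 genes were higher at P29 (16.4% of those tested) and 1873 were lower (15.2%). Counts of mutant calls within lists are to be read beside these shares. Which direction held more genes depended on the method, since median-of-ratios scaling called 1818 higher and 2048 lower, DESeq2 1906 and 2149, and voom 2032 and 2159. Changes of at least 4-fold were called for 186 higher and 576 lower genes, and changes of at least 8-fold for 85 higher and 287 lower genes. The levels of 3846 genes (31.3%) did not overlap between the 4 and 4 libraries. The median log2 change of all tested genes was -0.011.

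Ift20 itself had 70.08, 57.91, 88.82 and 68.58 CPM in the P29 mutants, against 76.65, 94.2, 90.67 and 80.81 CPM in the P11 mutants. The ages overlapped, and the log2 change of -0.26 (SE 0.16) was not called (edgeR adjusted p = 0.21). A 3′ tag count need not read a deleted part of the gene, so this level does not check the genotype.

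Genes of the visual cycle rose together. Of 14 tested genes, 12 were higher at P29 and 1 was lower, with a median log2 change of 1.17, against -0.011 over all genes. The sum of their levels was 46630 to 49060 CPM in the P29 mutants, against 20160 to 20920 CPM in the P11 mutants. The upstream regions of Rgr and Rpe65 are shown because both genes rose and both hold the letters TAATCC, the core bound by OTX homeodomain factors, given in capitals on either strand (TAATCC or GGATTA). The 250 bases before the RefSeq start are printed 5′ to 3′ on the strand of the gene, on GRCm38.p6, at chr14:37049015-37049264 on the minus strand for Rgr and chr3:159598931-159599180 on the plus strand for Rpe65.
Rgr: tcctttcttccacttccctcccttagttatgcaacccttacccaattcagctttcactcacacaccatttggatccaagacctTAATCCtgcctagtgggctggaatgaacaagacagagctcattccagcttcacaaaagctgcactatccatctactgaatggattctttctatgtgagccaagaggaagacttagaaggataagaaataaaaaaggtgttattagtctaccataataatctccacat
Rpe65: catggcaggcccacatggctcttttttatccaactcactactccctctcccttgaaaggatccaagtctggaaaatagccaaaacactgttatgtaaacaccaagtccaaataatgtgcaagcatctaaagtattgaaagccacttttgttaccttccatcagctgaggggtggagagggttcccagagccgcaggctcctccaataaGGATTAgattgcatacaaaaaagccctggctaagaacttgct
These letters stood in the upstream windows of 2 of 11 matched visual cycle genes (18.2%) and of 7.21% of 27025 genes, which is a description of letters and not of binding.

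Rpe65, the isomerase that makes 11-cis retinol, lies on chromosome 3 at 159599175 to 159625321 of GRCm38. It had 6118, 6093, 5898 and 6038 CPM in the P29 mutants, against 1950, 1889, 1901 and 1967 CPM in the P11 mutants. Every P29 library was above every P11 library, and the log2 change was 1.65 (SE 0.04, edgeR adjusted p = 7.03e-56). Lrat, which esterifies retinol to feed that isomerase, had 1379, 1344, 1325 and 1297 CPM in the P29 mutants, against 329.2, 320.6, 344.4 and 296.4 CPM in the P11 mutants. Its levels were separate between the ages too (log2 change 2.05, SE 0.07, edgeR adjusted p = 1.34e-48). Rgr, an opsin of the RPE that isomerises retinal in light, had 3903, 4136, 3975 and 3859 CPM in the P29 mutants, against 1154, 1146, 1167 and 1189 CPM in the P11 mutants. Its log2 change was 1.77 (SE 0.05, edgeR adjusted p = 1.8e-56).

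Rdh5, the 11-cis retinol dehydrogenase, averaged 2957 ± 153 CPM in the P29 mutants and 999.8 ± 65.1 CPM in the P11 mutants (SD, n = 4 each). Rlbp1, the carrier of 11-cis retinoids, averaged 2911 ± 124 CPM in the P29 mutants and 1060 ± 53.4 CPM in the P11 mutants. Ttr, the plasma carrier of thyroxine and retinol-binding protein, had 23840 to 25900 CPM in the P29 mutants, against 12030 to 12830 CPM in the P11 mutants. All 3 rose. Crabp1, a cytosolic retinoic acid carrier, was the member that fell, to 0.854 to 3.527 CPM in the P29 mutants, against 18.75 to 27.61 CPM in the P11 mutants (log2 change -3.66, SE 0.80, edgeR adjusted p = 0.0003). Rbp4, at a few counts, was not called.

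**Figure D1:**
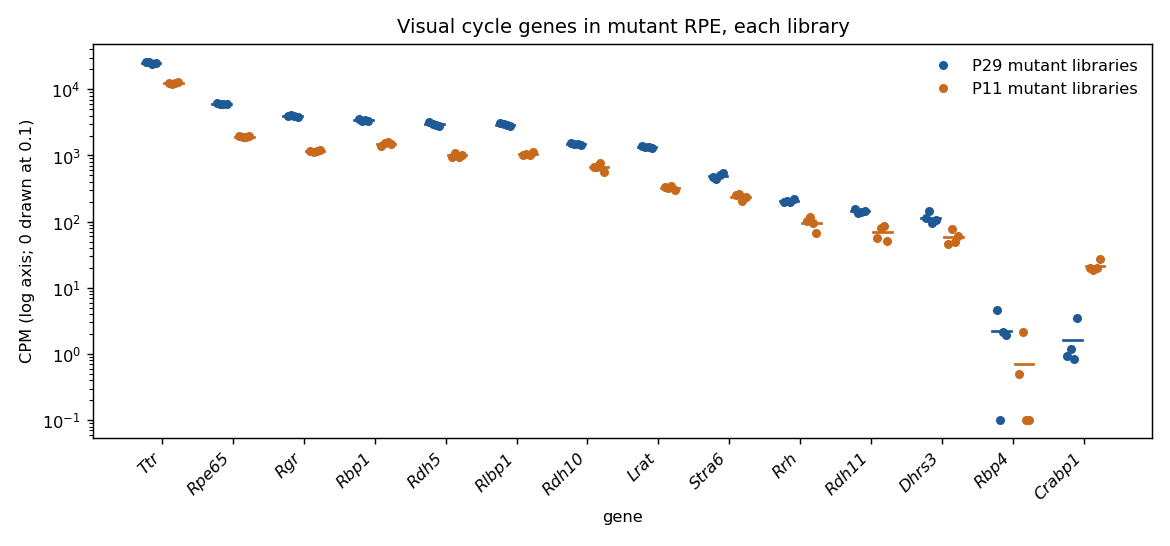
Levels of the 14 tested visual cycle genes in CPM on a log axis, each point 1 mutant library, P29 in blue left of P11 in orange, lines at the group means. The P29 points lie above the P11 points for 12 genes, Crabp1 lies lower at P29, and Rbp4 overlaps.

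Channels and transporters of the RPE rose in most cases. Of 17 tested ion transport genes, 12 were higher and 4 lower, with a median log2 change of 0.93. Kcnj13, the inward rectifier Kir7.1 of the apical membrane, had 514.5, 512.9, 514.1 and 478.5 CPM in the P29 mutants, against 155.3, 137.8, 134 and 143.3 CPM in the P11 mutants. The groups were separate (log2 change 1.82, SE 0.08, edgeR adjusted p = 1.7e-37). Trpm3, a cation channel, rose by 1.25, Car14, a membrane carbonic anhydrase, by 0.93, and Atp1b1, a sodium pump subunit, by 0.92 on the log2 scale. The 4 that fell were Car2 (-1.51), Ttyh1 (-1.36), Trpm1 (-0.92) and Cacna1d (-1.85). Trpm1 is also a gene of bipolar cells and Car2 of Müller glia, and markers of the inner retina fell as well. The part of those cells in these falls was not tested.

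Among 16 tested carriers of metabolites, 11 were higher and none lower, with a median log2 change of 0.51. Slc16a8, the lactate carrier MCT3 of the RPE, had 1032, 962.8, 1016 and 907.2 CPM in the P29 mutants, against 421.1, 436.1, 458.7 and 454.4 CPM in the P11 mutants. Its log2 change was 1.15 (SE 0.07, edgeR adjusted p = 3.51e-29). Slc16a1, the lactate carrier MCT1, rose by 0.73, and Slc6a6, the taurine carrier, by 0.71 on the log2 scale. Of 18 junction genes, 7 rose and 1 fell. Ctnna1, alpha-catenin, rose by 0.92, and Cldn1, a claudin of tight junctions, by 0.68. Cdh2, N-cadherin, was the gene that fell (log2 change -1.41, SE 0.29, edgeR adjusted p = 4.97e-05).

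Of 16 genes for the uptake of outer segments, 9 rose and 2 fell. Mertk, the receptor kinase that triggers engulfment, had 242, 181.6, 234.4 and 188.5 CPM in the P29 mutants, against 101.2, 107.7, 89.33 and 137.7 CPM in the P11 mutants. The groups were separate (log2 change 0.95, SE 0.11, edgeR adjusted p = 1.51e-12). Ezr, which builds the apical microvilli, rose by 1.25, and Rac1, a small GTPase of the actin skeleton, by 0.74. The 2 that fell, Tub (-1.43) and Tulp1 (-0.79), are known bridging ligands for this uptake, and Tulp1 is also a photoreceptor gene.

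Of 24 lysosomal genes, 14 rose and 2 fell. Psap, the precursor of the saposins, averaged 1990 ± 150 CPM in the P29 mutants and 915.7 ± 31.4 CPM in the P11 mutants (SD, n = 4 each; log2 change 1.12, SE 0.06, edgeR adjusted p = 2.04e-30). Npc2, a lysosomal cholesterol carrier, rose by 1.23, Cd63, a tetraspanin, by 1.05, and Laptm4a by 0.82 on the log2 scale. Grn, progranulin, fell by 0.60. Cln3, a lysosomal membrane protein, fell by 0.66 (edgeR adjusted p = 0.0218). The Cln3 call was lost without P11 mutant replicate 2 (edgeR adjusted p = 0.103) or without P29 mutant replicate 2 (0.0725), 3 (0.0629) or 4 (0.0553).

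Genes of melanin synthesis and the melanosome did not move one way: of 14 tested, 5 were higher and 2 lower. Pmel, which forms the fibrils of the early melanosome, had 450, 364, 382.2 and 440.5 CPM in the P29 mutants, against 1601, 1485, 1555 and 1455 CPM in the P11 mutants. Every P29 library was below every P11 library (log2 change -1.90, SE 0.08, edgeR adjusted p = 4.27e-37). Dct, an enzyme of eumelanin synthesis and the gene behind the Cre driver, fell by 0.62 on the log2 scale. Rab27a, which tethers melanosomes to motors, averaged 173.3 ± 16.6 CPM in the P29 mutants and 86.77 ± 22.6 CPM in the P11 mutants and was called higher (log2 change 1.00). The other genes that rose were Gpr143 (1.33), a receptor of melanosome size, Oca2 (0.56), Slc24a5 (0.40) and Bloc1s1 (0.73). The 3′ end of Bloc1s1 overlaps Rdh5 on the same strand, which rose by 1.56 on the log2 scale, so reads of the pair may not be told apart. Tyrp1, at a log2 change of -0.16, and Mlana, at 0.19, were not called.

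Genes of energy metabolism moved in both directions. Of 13 transcripts of the mitochondrial genome, 11 were tested, and 7 were lower and none higher. mt-Nd1, a complex I subunit, had 8918, 9951, 9055 and 9359 CPM in the P29 mutants, against 17850, 17830, 18260 and 16870 CPM in the P11 mutants (log2 change -0.93, SE 0.04, edgeR adjusted p = 9e-37). mt-Cytb fell by 0.61 and mt-Co1 by 0.47 on the log2 scale. The list summed to 53250 to 65280 CPM in the P29 mutants, against 99870 to 107100 CPM in the P11 mutants. Of 18 glycolysis genes, 9 rose and 2 fell. Hk2, a hexokinase, had 189, 158.4, 155.9 and 200.6 CPM in the P29 mutants, against 23.58, 21.37, 13.85 and 20.3 CPM in the P11 mutants (log2 change 3.15, SE 0.19, edgeR adjusted p = 9.08e-27). The lactate dehydrogenase genes went opposite ways: Ldhb rose by 1.35, whereas Ldha fell by 0.95. Eno2, the neuronal enolase, fell by 0.61.

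Of 21 genes of fatty acid oxidation and ketone synthesis, 11 rose and none fell. Acadl, an acyl-CoA dehydrogenase, had 155.4, 167.8, 133.2 and 143 CPM in the P29 mutants, against 68.79, 82.43, 72.8 and 120.6 CPM in the P11 mutants. The groups did not overlap, and P11 mutant replicate 4 was closest to the P29 mutants (log2 change 0.79, SE 0.13, edgeR adjusted p = 2.06e-07). Etfb, an electron carrier, rose by 0.63 on the log2 scale.

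Of 24 antioxidant genes, 14 rose and 1 fell. The metallothionein Mt1 had 6109, 5502, 5549 and 5907 CPM in the P29 mutants, against 1615, 1499, 1577 and 1777 CPM in the P11 mutants (log2 change 1.83, SE 0.05, edgeR adjusted p = 8.52e-49). Mt2 rose by 2.25, catalase (Cat) by 1.34 and the peroxiredoxin Prdx1 by 0.94 on the log2 scale. Txn1, thioredoxin, was the gene that fell (log2 change -0.50, edgeR adjusted p = 0.0143), a call lost without P11 mutant replicate 2 (0.0613) or P29 mutant replicate 4 (0.0796). Of 12 iron genes, 5 rose and 1 fell. Trf, transferrin, had 7793, 7322, 7355 and 7461 CPM in the P29 mutants, against 1565, 1734, 1643 and 1645 CPM in the P11 mutants (log2 change 2.18, SE 0.04, edgeR adjusted p = 3.1e-67). Fth1, ferritin heavy chain, rose by 0.57, Ftl1, its light chain, by 0.49, Slc11a2 by 0.67 and Aco1 by 0.87, and Cp, the ferroxidase ceruloplasmin, fell by 1.24. The Slc11a2 call was lost without P29 mutant replicate 2 (edgeR adjusted p = 0.0872) or P11 mutant replicate 4 (0.0809).

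Secreted proteins and matrix split. Of 25 tested paracrine factors, 11 rose and 4 fell. Ptgds, which makes prostaglandin D2, had 24210, 26020, 24020 and 25080 CPM in the P29 mutants, against 4671, 4736, 4446 and 4902 CPM in the P11 mutants. The groups were far apart (log2 change 2.40, SE 0.05, edgeR adjusted p = 2.29e-40), yet voom with quality weights gave an adjusted p of 0.129 for a log2 change of 2.41. Fgf1 rose by 2.19. Those that fell were Meg3 (-2.96), a long non-coding RNA, Igf1 (-1.86), Peg3 (-0.54) and Fgf9 (-2.03), and the Fgf9 call was lost without P11 mutant replicate 3 (edgeR adjusted p = 0.0513). Apoe, the apolipoprotein, had 5711 to 6220 CPM in the P29 mutants, against 2459 to 2770 CPM in the P11 mutants, and rose by 1.17.

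Of 21 genes of the basement membrane and Bruch's membrane, 5 rose and 7 fell. Over all genes 16.4% rose and 15.2% fell. Timp3, a metalloproteinase inhibitor stored in Bruch's membrane, had 6164, 6391, 6257 and 6124 CPM in the P29 mutants, against 1993, 1883, 1866 and 1930 CPM in the P11 mutants (log2 change 1.70, SE 0.04, edgeR adjusted p = 1.63e-57). The other genes that rose were Col8a2 (1.38), Col18a1 (0.44), Col8a1 (0.40) and Col4a4 (0.25). The Col4a4 call was lost without P11 mutant replicate 2 (edgeR adjusted p = 0.0669) or 3 (0.104), with DESeq2 (0.0631) and with median-of-ratios scaling (0.0778). Agrn, agrin, fell by 2.01. Of 23 fibrillar matrix genes, 5 rose and 9 fell. Sparc, a collagen chaperone, had 881.5, 870.3, 982.5 and 1001 CPM in the P29 mutants, against 1868, 1846, 1894 and 2175 CPM in the P11 mutants (log2 change -1.06, SE 0.06, edgeR adjusted p = 6.2e-28). Fbn1, fibrillin, fell by 1.32. The genes that rose were Ccn1 (3.03), Ccn2 (1.87), Dcn (1.29), Acta2 (0.87) and Loxl1 (0.47). The fibroblast markers Col1a2 (-0.93) and Col3a1 (-1.08) fell as well, whereas Dcn and Ogn (0.68) rose, and the part of fibroblasts in these changes was not tested.

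Of 23 genes of BMP and TGF-beta signalling, 7 rose and 2 fell. Among ligands, Bmp2 had 195, 164.3, 167.4 and 190.5 CPM in the P29 mutants, against 55.52, 63.67, 57.17 and 73.5 CPM in the P11 mutants (log2 change 1.52, SE 0.13, edgeR adjusted p = 5.76e-19), and Tgfb2 fell by 1.91. Nog, the BMP antagonist noggin, had 91.74, 65.79, 105.9 and 80.34 CPM in the P29 mutants, against 3.439, 7.414, 6.253 and 12.99 CPM in the P11 mutants (log2 change 3.47, SE 0.25, edgeR adjusted p = 9.59e-18). Of the target genes, Id2 and Id3 each rose by 0.67, and Id4 fell by 1.46. Of 16 Wnt genes, 4 rose and 1 fell, where 16.4% of all genes rose and 15.2% fell. The receptor Fzd4 rose by 1.31, the receptor Fzd8 by 0.92 and the secreted inhibitor Sfrp5 by 1.53, and the feedback inhibitor Nkd1 fell by 3.83. The co-receptor Lrp6 rose by 0.39 (edgeR adjusted p = 0.0412), a call lost without P11 mutant replicate 1 (0.205) or 4 (0.103) and without P29 mutant replicate 1 (0.0881), 2 (0.115) or 3 (0.0624). It was also lost with DESeq2 (adjusted p = 0.126), median-of-ratios scaling (0.0853) and voom (0.0524).

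Of 16 tested transcription factors of eye development, 6 rose and 6 fell. Mitf, the regulator of pigment cell identity, averaged 155.3 ± 18 CPM in the P29 mutants and 83.1 ± 7.19 CPM in the P11 mutants (SD, n = 4 each; log2 change 0.90, SE 0.12, edgeR adjusted p = 6.7e-10). Sox9, another factor of this list, had 633.4, 648.5, 626 and 636.8 CPM in the P29 mutants, against 246.7, 231.1, 217.1 and 226.2 CPM in the P11 mutants (log2 change 1.47, SE 0.07, edgeR adjusted p = 3.8e-33). Klf4 rose by 2.07, Zfp503 by 0.67, Lhx2 by 0.50 and Otx2 by 0.27. Pax6, a factor of early eye development that inner retinal neurons also express, had 20.75, 19.7, 28.18 and 32.13 CPM in the P29 mutants, against 77.14, 83.74, 77.27 and 73.5 CPM in the P11 mutants (log2 change -1.62, SE 0.24, edgeR adjusted p = 2.96e-08). The photoreceptor factor Crx fell by 1.11, Rax by 1.29, Nr2f1 by 1.69 and Vax2 by 2.27. Markers of the inner retina fell in the same libraries, and their part was not tested.

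Immediate early genes, whose transcription starts within minutes of a stimulus without new protein, were higher at P29 in 20 of 21 cases and lower in none. Their median log2 change was 2.66, and their summed level was 3303 to 3592 CPM in the P29 mutants, against 716.4 to 802.9 CPM in the P11 mutants. The labels do not give the hour of collection or the time between death and lysis. The upstream windows of 3 members are shown because they hold the letters TGACG or CGTCA, the core of the cAMP response element, in capitals. The 250 bases before the RefSeq start, 5′ to 3′ on the strand of the gene, lie on GRCm38.p6 at chr15:101266596-101266845 (plus) for Nr4a1, chr7:19310046-19310295 (minus) for Fosb and chr12:85473640-85473889 (plus) for Fos.
Nr4a1: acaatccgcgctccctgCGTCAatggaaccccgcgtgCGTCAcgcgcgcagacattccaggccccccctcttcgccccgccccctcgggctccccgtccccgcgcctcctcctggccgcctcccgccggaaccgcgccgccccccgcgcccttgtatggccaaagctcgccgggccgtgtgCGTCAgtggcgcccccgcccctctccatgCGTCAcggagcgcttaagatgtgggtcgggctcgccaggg
Fosb: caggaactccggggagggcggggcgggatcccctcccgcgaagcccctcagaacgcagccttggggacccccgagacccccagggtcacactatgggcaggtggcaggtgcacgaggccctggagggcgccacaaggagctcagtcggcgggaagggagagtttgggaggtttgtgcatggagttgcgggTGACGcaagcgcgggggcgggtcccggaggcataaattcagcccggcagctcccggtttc
Fos: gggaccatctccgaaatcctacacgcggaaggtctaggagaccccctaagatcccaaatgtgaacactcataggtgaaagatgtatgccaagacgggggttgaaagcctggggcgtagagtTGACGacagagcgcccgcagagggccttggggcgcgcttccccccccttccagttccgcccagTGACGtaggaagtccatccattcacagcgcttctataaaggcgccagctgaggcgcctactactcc
The letters stood in the windows of 12 of 18 matched members (66.7%) and of 19.8% of 27025 genes, 4 times in that of Nr4a1. This counts letters and shows no binding.

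Nr4a1, an orphan nuclear receptor, had 111.1, 85.49, 123.4 and 125.8 CPM in the P29 mutants, against 5.896, 8.722, 7.593 and 6.903 CPM in the P11 mutants. The groups were far apart (log2 change 3.92, SE 0.20, edgeR adjusted p = 1.12e-33). Fosb, an AP-1 subunit, had 319, 288.4, 350.6 and 287.6 CPM in the P29 mutants, against 32.92, 51.46, 34.84 and 25.58 CPM in the P11 mutants (log2 change 3.10, SE 0.12, edgeR adjusted p = 1.18e-41). Fos, another AP-1 subunit, had 547.7, 609.5, 717.4 and 596.5 CPM in the P29 mutants, against 69.77, 73.27, 77.72 and 59.69 CPM in the P11 mutants (log2 change 3.14, SE 0.17, edgeR adjusted p = 4.26e-13). None of these groups overlapped. Jun rose by 2.27, and the zinc finger factor Egr1 by 2.05 on the log2 scale. In controls 17 of the 21 were higher at P29 and none lower, with a median of 1.64. The list summed to 4609 to 5039 CPM in the P29 controls and 1272 to 1328 CPM in the P11 controls. These sums were above those of the mutants at both ages. The change was larger in mutants than in controls for 8 of them by the test of the difference, against 1.45% of all genes in that direction and 2.63% in either. They were Atf3 (1.80), Ier2 (1.42), Zfp36 (1.60) and Dusp1 (1.00), with Nr4a1 (difference 1.78, SE 0.26, edgeR adjusted p = 5.42e-07), Fosb (0.85, SE 0.16, 0.000204), Nr4a2 (1.60, SE 0.32, 0.000347) and Klf2 (1.51, SE 0.26, 1.85e-05). The differences of Atf3, Ier2 and Zfp36 lost their call with voom (adjusted p = 0.457, 0.0666 and 0.0809). The Atf3 difference also lost it in a fit of the compared groups alone (edgeR adjusted p = 0.0649) and without any 1 of 9 of the 16 libraries (up to 0.196), and the Ier2 difference without any 1 of 5 (up to 0.0711).

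**Figure D2:**
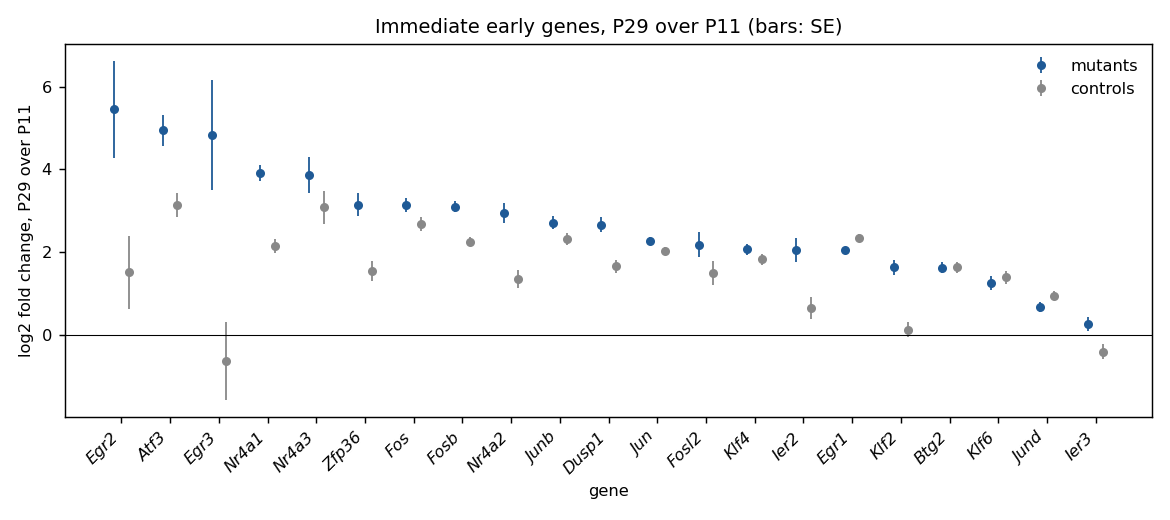
Log2 fold change of P29 over P11 for the 21 immediate early genes, mutants in blue left of controls in grey, bars showing the SE. All mutant points lie above 0, and 20 of them were called; Ier3 was not.

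Genes of interferon response and antigen presentation rose in 15 of 21 tested cases and fell in none, with a median log2 change of 1.69. B2m, the light chain of class I molecules, had 720.1, 711.9, 807.9 and 706.6 CPM in the P29 mutants, against 357.7, 354.1, 323.4 and 310.7 CPM in the P11 mutants (log2 change 1.13, SE 0.07, edgeR adjusted p = 3.94e-25). Ifi27 rose by 2.80, Ifit3 by 2.21 and Irf9, a subunit of the interferon-activated complex, by 1.83. Controls had 14 higher and none lower. Of 14 tested complement genes, 8 rose and none fell. Clu, clusterin, had 5739 to 6136 CPM in the P29 mutants, against 2583 to 2732 CPM in the P11 mutants (log2 change 1.13, SE 0.04, edgeR adjusted p = 9.2e-42). Vtn, vitronectin, rose by 1.56 on the log2 scale. Microglia and macrophage markers showed 1 rise, Csf1r (0.98), and 2 falls, Cx3cr1 (-1.30) and Mrc1 (-1.60), of 13 tested, and summed to 454.2 to 490.5 CPM in the P29 mutants, against 372 to 408.2 CPM in the P11 mutants. Their part in the immune genes was not tested.

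Of 17 genes of protein folding stress, 8 rose and 1 fell. Xbp1 had 56.24, 71.31, 65.33 and 63.49 CPM in the P29 mutants, against 26.04, 24.42, 20.99 and 15.02 CPM in the P11 mutants (log2 change 1.57, SE 0.20, edgeR adjusted p = 1.78e-10). The chaperone Hspa5 rose by 0.59 and Herpud1 by 1.57. Atf4, a translation-controlled factor, was the gene that fell (log2 change -0.65, SE 0.10, edgeR adjusted p = 7.01e-08). Both Xbp1 (difference 1.33, SE 0.28, edgeR adjusted p = 0.00106) and Atf4 (-0.90, SE 0.14, 3.25e-06) changed differently in mutants and controls. Of 17 clock genes, 10 rose and 2 fell. Levels of such genes can vary with the hour of collection, which the labels do not give, and its part was not tested. Bhlhe40 rose by 2.38, Dbp by 1.45 and Hlf by 0.64, and Arntl, the partner of Clock, fell by 1.36. Per3 fell by 0.59 (edgeR adjusted p = 0.0123), a call lost without P11 mutant replicate 1 (0.101) or P29 mutant replicate 2 (0.0558), and its 3′ end overlaps Camta1 on the same strand.

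Of 29 tested genes of transport and motors in the cilium, 2 rose and 4 fell, where 16.4% of all genes rose and 15.2% fell. Ift57 rose by 0.95 and Wdr35 by 0.84. Kif3a, a motor subunit, had 27.66, 43.34, 47.4 and 50.16 CPM in the P29 mutants, against 77.14, 69.34, 85.76 and 79.19 CPM in the P11 mutants (log2 change -0.88, SE 0.19, edgeR adjusted p = 0.000103). Ift74 fell by 0.83. Dync2h1 fell by 0.47, a call lost without P11 mutant replicate 1 (edgeR adjusted p = 0.0624). Ttc30b fell by 1.39 (edgeR adjusted p = 0.0265), lost without P11 mutant replicate 1 (0.0714) or 3 (0.0527) and without P29 mutant replicate 3 (0.0542) or 4 (0.0838), and with no filter on low counts (0.0589).

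Of 13 genes of the BBSome, which sorts membrane proteins in cilia, and of factors associated with it, 1 rose and 3 fell. Over all genes 16.4% rose and 15.2% fell. Mkks rose by 1.18, Bbs9 fell by 1.18 and Lztfl1 by 0.90. Ttc8 fell by 0.72 (edgeR adjusted p = 0.0165), lost without P11 mutant replicate 1 (0.0615) or 2 (0.0702) or P29 mutant replicate 3 (0.0786). Of 9 hedgehog genes, Gli2 (1.59, edgeR adjusted p = 0.0413) and Boc (1.51, 0.0415) were called higher. Gli2 was lost without P11 mutant replicate 3 (0.0848) or 4 (0.156) or P29 mutant replicate 1 (0.143) or 3 (0.154), with voom (0.181), with median-of-ratios scaling (0.0508) and with no filter on low counts (0.0525). Boc was lost without P11 mutant replicate 1 (0.068), 2 (0.101) or 3 (0.12) or P29 mutant replicate 1 (0.127) or 4 (0.0808), with median-of-ratios scaling (0.0511) and with no filter on low counts (0.0544). Of 22 cell cycle genes, 18 were not called. Ccnd1, cyclin D1, rose by 0.99 and the inhibitor Cdkn1a by 0.76, and the inhibitor Cdkn1c fell by 0.66. Cdk1 rose by 1.12, a call lost without P11 mutant replicate 1 (edgeR adjusted p = 0.0538) or P29 mutant replicate 4 (0.0549).

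Lens genes were higher in the P29 mutants. Of 17 tested, 16 were higher and none lower, with a median log2 change of 4.02, and Bfsp2 was not called. In controls 1 was higher and 9 were lower, with a median of -1.62, and the sum was 307.1 to 328.8 CPM at P29, against 335.2 to 380.4 CPM at P11. The change differed between mutants and controls for 15 of 17, against 1.45% of all genes. At 3 months, the mutant means were 0.225 CPM for Cryaa, 0.442 CPM for Cryba1, 0.319 CPM for Crygs and 0.1955 CPM for Crybb2. Their means in the P29 mutants were 201, 195.67, 97.24 and 49.33 CPM. Cryab went the other way, with a mutant mean of 449.5 CPM at 3 months and 375.3 CPM at P29. The change from P29 to 3 months was not tested. Crystallins are the structural proteins of lens fibres, and alpha-crystallins also act as chaperones. The labels name RPE cells alone. The windows of 3 crystallin genes are shown because they hold TGCTGA or TCAGCA, the core bound by MAF factors of the lens, in capitals. The 250 bases before the RefSeq start, 5′ to 3′ on the strand of the gene, lie on GRCm38.p6 at chr11:77725294-77725543 (minus) for Cryba1, chr17:31677681-31677930 (plus) for Cryaa and chr16:22811411-22811660 (minus) for Crygs.
Cryba1: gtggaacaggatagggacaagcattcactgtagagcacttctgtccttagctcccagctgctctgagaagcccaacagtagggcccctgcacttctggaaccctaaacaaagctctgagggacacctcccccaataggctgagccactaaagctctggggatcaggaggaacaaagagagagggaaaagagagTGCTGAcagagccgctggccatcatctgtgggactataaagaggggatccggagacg
Cryaa: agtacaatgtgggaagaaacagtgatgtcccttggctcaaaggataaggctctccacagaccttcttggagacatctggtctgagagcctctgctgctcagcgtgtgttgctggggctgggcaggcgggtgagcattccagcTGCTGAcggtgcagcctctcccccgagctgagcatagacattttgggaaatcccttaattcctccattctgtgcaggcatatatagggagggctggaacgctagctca
Crygs: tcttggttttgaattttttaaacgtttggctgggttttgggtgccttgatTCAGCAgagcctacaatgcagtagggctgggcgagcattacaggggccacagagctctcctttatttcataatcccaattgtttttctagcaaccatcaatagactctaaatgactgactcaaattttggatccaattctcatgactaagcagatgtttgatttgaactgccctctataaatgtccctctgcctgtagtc
The letters stood in the windows of 11 of 17 matched lens genes (64.7%) and of 18% of 27025 genes, again a count of letters.

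Cryba1, which the RPE is also known to express, had 170.1, 225.3, 191.3 and 195.9 CPM in the P29 mutants, against 7.37, 7.414, 12.51 and 6.091 CPM in the P11 mutants. Its 4 levels at P29 stood far above those at P11 (log2 change 4.55, SE 0.26, edgeR adjusted p = 1.19e-28). Controls averaged 4.07 CPM at P29 and 22.5 CPM at P11, and the difference between the genotypes' changes was 6.94 (SE 0.40, edgeR adjusted p = 4.64e-27). Its 3′ end overlaps Nufip2 on the other strand, and no source used here says whether counting used strand.

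Cryaa had 247.1, 190.7, 183.6 and 182.6 CPM in the P29 mutants, against 3.439, 11.78, 6.7 and 12.59 CPM in the P11 mutants. Crygs had 90.36, 115, 97.36 and 86.22 CPM in the P29 mutants, against 1.965, 1.744, 4.913 and 4.061 CPM in the P11 mutants. Both were separate between the ages, with log2 changes of 4.51 (SE 0.33, edgeR adjusted p = 6.7e-15) and 4.90 (SE 0.41, 6.45e-18). Cryab, a small heat shock protein, rose by 1.67 in mutants and by 0.44 in controls (difference 1.23, SE 0.13, edgeR adjusted p = 1.42e-11). Mip, the water channel of lens fibres, rose by 3.17. Crygb (4.02), Crygc (4.65) and Crygd (3.94) rose as well, and reads of these near-identical gamma-crystallin genes may be divided uncertainly among them. Krt15 and Krt5, keratins of surface epithelia, rose by 3.29 and 2.40, and the list they belong to summed to 61.1 to 89.4 CPM in the P29 mutants, against 9.83 to 29.5 CPM in the P11 mutants. In controls that list summed to 0.369 to 6.07 CPM at P29 and 0 to 6.91 CPM at P11. No difference between the genotypes' changes was called among its 3 tested genes. With so few counts in controls, that test could hardly have shown a difference, so nothing is drawn from it. The part of lens or surface cells in these levels was not tested.

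**Figure D3:**
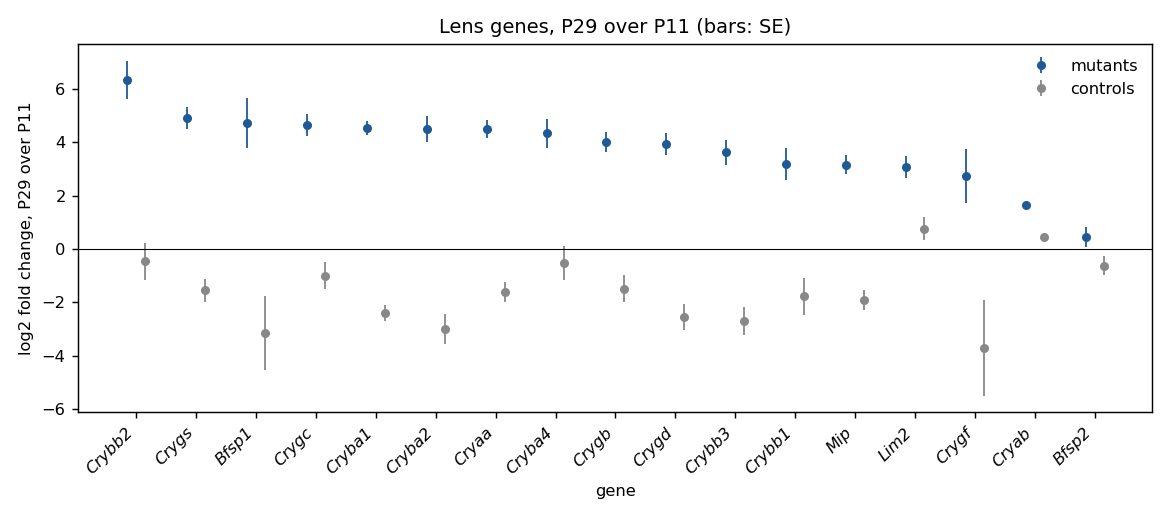
Log2 fold change of P29 over P11 for the 17 tested lens genes, mutants in blue left of controls in grey, bars showing the SE. Every mutant point is above 0, whereas most control points are below 0.

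Markers of neurons fell. Of 21 inner retina genes, 17 were lower and 1, Slc6a9 (0.53), was higher, with a median log2 change of -2.92. Controls had 18 lower and 1 higher. Tfap2b, a factor of amacrine cells, had 12.91, 12.21, 10.25 and 10.58 CPM in the P29 mutants, against 120.9, 131.3, 146.1 and 135.2 CPM in the P11 mutants (log2 change -3.53, SE 0.25, edgeR adjusted p = 9.66e-24). Snap25, a synaptic fusion protein, fell by 1.61. Cone genes fell in 5 of 10 cases and rose in none: Opn1sw (-1.35), Gnb3 (-1.73), Gngt2 (-2.19), Pde6h (-1.09) and Cngb3 (-2.83).

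Rod genes split, 5 higher and 7 lower of 17. Among those that rose, 4 encode parts of the light response: Gnat1 (1.98), Pde6a (1.07), Guca1a (3.10) and Guca1b (2.18). Gnat1, rod transducin, had 2172, 2203, 2107 and 2040 CPM in the P29 mutants, against 507.6, 533.8, 522.1 and 591.7 CPM in the P11 mutants (SE 0.07, edgeR adjusted p = 1.02e-47). Nr2e3, a rod transcription factor, fell by 1.63 and Rp1, an axoneme protein, by 1.53. The rise of Gnat1 was larger in mutants than in controls (difference 0.44, SE 0.09, edgeR adjusted p = 0.000879).

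Glial, vascular and blood markers each had their own pattern. Of 11 Müller glia and astrocyte genes, Glul (0.59), Apoe and Aldh1l1 (1.90) rose, and Slc1a3 (-3.17), Rax and Abca8a (-1.79) fell. Of 9 myelin genes, Mbp (1.30), Mobp and Pmp22 (1.06) rose, and Cnp (-1.30) and Mag fell. Mag had 3 counts in the P29 mutants and 22 in the P11 mutants, 7.8 times fewer after scaling by depth (95% exact interval for counting error, 2.34 to 40.7). The Mag call was lost without P11 mutant replicate 2 (edgeR adjusted p = 0.0745) or 4 (0.0663) or P29 mutant replicate 2 (0.0715) or 3 (0.0692), and also with voom (0.175) and DESeq2 (0.0746). Mbp had 43.8, 41.37, 84.55 and 63.88 CPM in the P29 mutants, against 18.67, 27.91, 17.87 and 29.64 CPM in the P11 mutants. In controls it averaged 79.4 CPM at P29 and 181 CPM at P11, and the difference of changes was 2.49 (SE 0.26, edgeR adjusted p = 3.46e-12). The myelin list summed to 191.1 to 250.8 CPM in the P29 mutants and 108.1 to 142.9 CPM in the P11 mutants, against 255.2 to 316.8 CPM in the P29 controls and 468 to 592.4 CPM in the P11 controls.

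Of 14 endothelial genes, Ramp2 (0.99) rose and Kdr (-1.88) and Flt1 (-0.81) fell in mutants, whereas 13 fell in controls. The change differed between the genotypes for 5 of them, Flt1, Plvap, Cdh5, Esam and Emcn, with differences of 1.35 to 3.74. The endothelial list summed to 281.8 to 362.6 CPM in the P11 mutants and 663.8 to 735.7 CPM in the P11 controls. Pericyte genes showed 3 rises of 10, Acta2 (0.87), Cspg4 (0.91) and Pdgfrb (1.24), and the Pdgfrb call was lost without P29 mutant replicate 4 (edgeR adjusted p = 0.0602). Of 7 melanocyte genes only Sox10 was called (1.41). All 6 tested erythrocyte genes fell, among them Hbb-bs, with 1587 to 1636 CPM in the P29 mutants, against 13560 to 14990 CPM in the P11 mutants (log2 change -3.11, SE 0.05, edgeR adjusted p = 5.12e-75). Hba-a2 fell by 2.95 and Alas2, of haem synthesis, by 3.04, and near-identical globin genes may share reads. Of 7 muscle genes, 6 fell, such as Acta1 (-3.90) and Mylpf (-3.18).

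**Figure D4:**
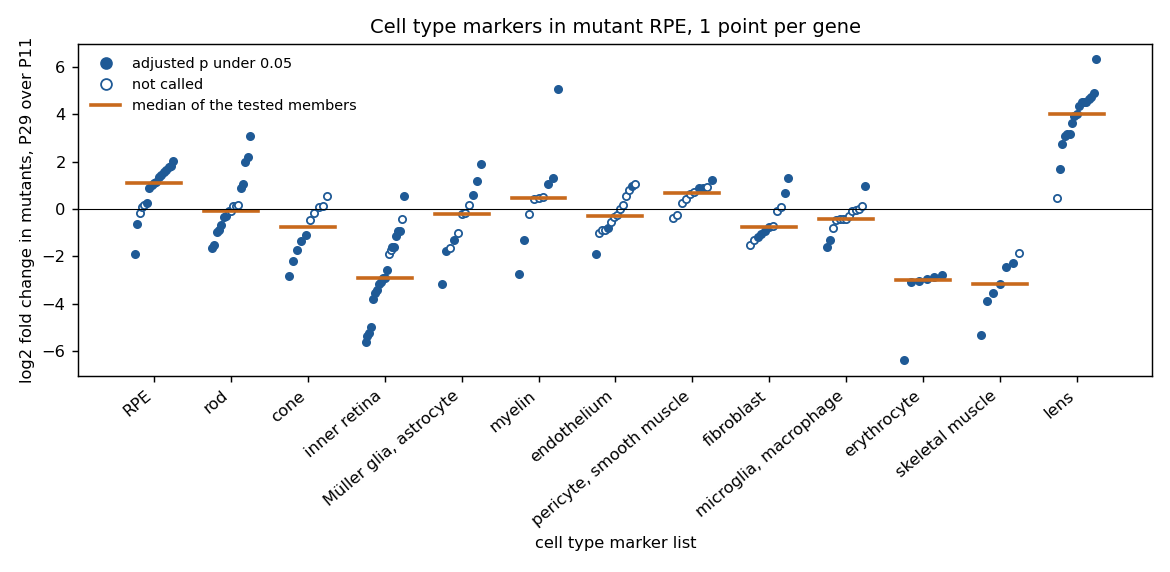
Log2 fold change of P29 over P11 in mutants for tested markers of 13 cell types, 1 point per gene, filled where called, orange lines at the list medians. Inner retina, erythrocyte and muscle points lie mostly below 0 and lens points above it.

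Among genes with at least 5 CPM at an age, Serpina3n, a serine protease inhibitor, had the largest fitted rise, with 16.6, 19.7, 17.93 and 23.51 CPM in the P29 mutants and 1 count in all P11 mutants together. The ratio of its depth-scaled counts was 177, with a 95% exact counting interval of 31.4 to 7020. Egr2 (ratio 64.9, 11.3 to 2600), Mobp (49.8, 8.57 to 2010) and the cytokine Il1b (46.1, 15.5 to 226) had likewise 1 to 3 counts at P11, and the crystallin Crybb2 rose by 6.34 on the log2 scale. The largest falls were of genes with no count in the P29 mutants. Over a floor of 3 counts per group, Sema5b, a guidance cue, was at least 48.2-fold lower, Gabrr1, a GABA receptor of bipolar cells, at least 35.1-fold, Bhlhe23 at least 30.5-fold, Zfp804b at least 29.8-fold and Riiad1 at least 29.4-fold lower.

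Among genes with at least 100 CPM at an age, crystallins led the rises, and after them Sult1c1, a sulfotransferase, had 86.67, 88.25, 111.9 and 114 CPM in the P29 mutants, against 6.387, 6.106, 6.7 and 4.467 CPM in the P11 mutants (log2 change 4.08, SE 0.18, edgeR adjusted p = 5.36e-37). Myoc, myocilin, rose by 3.73. Neurod4, a factor of retinal neurons, had 1.383, 0.7879, 0.854 and 1.176 CPM in the P29 mutants, against 106.6, 97.26, 96.48 and 102.7 CPM in the P11 mutants (log2 change -6.52, SE 0.39, edgeR adjusted p = 1.04e-27). Nnat fell by 6.11 and the synaptic gene Nrxn3 by 4.37.

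The remaining lists changed in part, where 16.4% of all genes rose and 15.2% fell. Of 32 nuclear genes of oxidative phosphorylation, 10 rose and 2 fell, and of 23 genes of cholesterol and lipid synthesis, 7 rose and 2 fell. Of 18 genes of thyroid, steroid and retinoid response, 5 rose and 2 fell, among them Sgk1, a kinase induced by steroids (1.49). Of 25 ribosomal protein genes, 3 rose and 6 fell. Of 9 ciliary body and iris genes, Oca2 and Bmp7 (0.52) rose and Col9a1 (-4.59) and Col9a2 (-2.80) fell. The Bmp7 call was lost without P11 mutant replicate 1 (edgeR adjusted p = 0.076) or 3 (0.135). The Col9a2 call was lost without P29 mutant replicate 2 (0.0702) or 3 (0.0704), the libraries with 0 counts of it. Of 7 Schwann cell genes, Pmp22, Egr2 and Sox10 rose and Ncam1 (-2.32) fell. Of 3 tested lymphocyte and mast cell genes, Cpa3, a mast cell protease, fell, with 1 count in all P29 mutant libraries and 24 in the P11 mutant libraries. It was higher at P11 by a count ratio of 25.5 (95% exact interval 4.16 to 1050), and the call was lost without P29 mutant replicate 2 (edgeR adjusted p = 0.0602), 3 (0.0586) or 4 (0.0625) or P11 mutant replicate 2 (0.0844). The 3′ ends of Kcnj13, Timp3, Pmel, Ezr, Car14, Atp1b1, Rac1, Csf1r, Cx3cr1, Dbp, Mip, Nnat, Ccnd1, Cp, Grn, Tub, Cnp, Cacna1d, Ogn, Alas2, Lztfl1, Slc6a9, Slc24a5, Col18a1, Opn1sw and Plvap overlap a gene on the other strand, and that of Ramp2 overlaps Vps25 on the same strand, so their counts are uncertain to that extent.

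In controls 2026 genes were higher at P29 (16.5%) and 1917 lower (15.6%), and median-of-ratios scaling called 1773 higher and 2167 lower. Fitted alone, the controls gave 1577 higher and 1595 lower genes, and the mutants 1924 and 1972. With voom the controls gave 1672 and 1777. The spread between libraries beyond counting error was 32.7% in the P11 controls and 21.8% to 22.3% in the P29 controls and both mutant groups. Mitochondrial transcripts made up 7.3% to 8.79% in the P11 controls, against 10.2% to 11.1% in the P11 mutants. The part of these in the differences was not tested. Of the mutant calls, 2571 were called in the same direction in controls, which is 66.0% of the mutant calls and 65.2% of the control calls, and 35 were called in opposite directions. The change itself differed between the genotypes for 178 genes upward (1.45%) and 145 downward (1.18%), together 2.63% of those tested. Of 14 visual cycle genes, Rgr alone differed, rising by 2.04 in controls (difference -0.27, SE 0.06, edgeR adjusted p = 0.00539), and with voom this call was lost (adjusted p = 0.353). Of 14 melanosome genes 3 differed, Pmel (0.81, SE 0.11, edgeR adjusted p = 5.54e-08), Tyrp1 (0.84, 1e-06) and Mlana (1.04, 0.000805), and all of them fell in controls, by 2.71, 1.01 and 0.85 on the log2 scale. Trf rose in both genotypes and more in mutants (difference 0.49, SE 0.06, edgeR adjusted p = 9.89e-10). Its mean was lower in mutants at both ages, 1646.6 against 2586.5 CPM in controls at P11 and 7482.6 against 8387.9 CPM at P29. Id2 rose in mutants and was not called in controls, at a log2 change of -0.10 (difference 0.78, SE 0.12, edgeR adjusted p = 1.69e-06). Pttg1, securin, had 44.72, 35.46, 35.87 and 40.76 CPM in the P29 mutants, against 42.26, 50.59, 50.03 and 49.95 CPM in the P11 mutants, and was not called in mutants (log2 change -0.30), whereas it rose by 1.66 in controls (difference -1.96, SE 0.23, edgeR adjusted p = 3.32e-10).

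**Figure D5:**
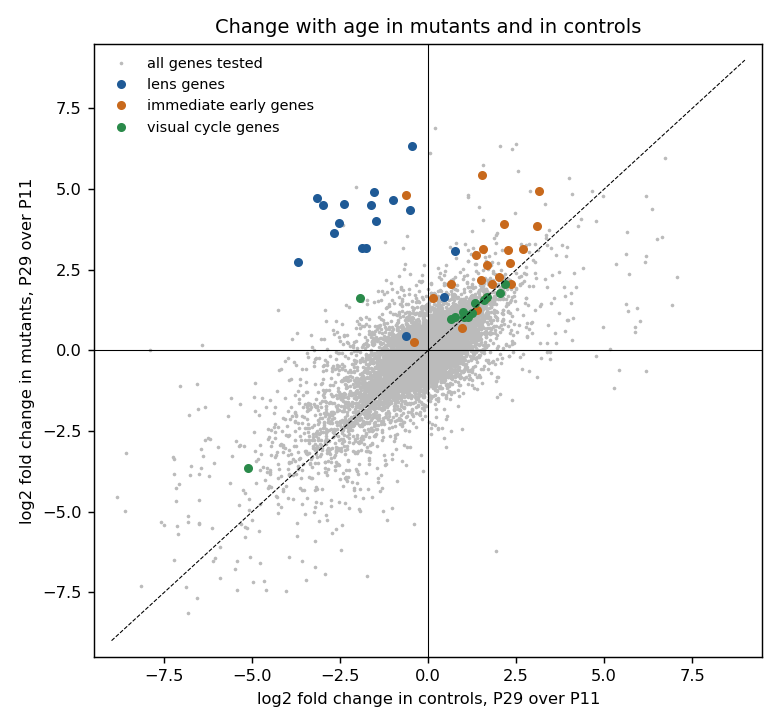
Log2 fold change of P29 over P11 in mutants (vertical axis) and in controls (horizontal axis), 1 point per tested gene, with the dashed line where both are equal. Most lens genes lie in the upper left, most visual cycle genes near the line, and most immediate early genes above it.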

How the data were processed

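The authors deposited 1 table of whole-number counts per gene for each library, and these counts were used as deposited. Libraries were made with a 3′ tag kit and read single-end, per the labels' protocols, and STAR and the mm10 build are named, per the submitters' processing notes. How reads were counted (tool, annotation, strand, molecular identifiers) was not given in the sources used here. Entries for no feature, ambiguous and not unique alignments were kept out of library sizes and tests: no feature entries averaged 20.8% in the P29 mutants and 27.0% in the P11 mutants, ambiguous ones 0.282% in the P29 mutants and 0.196% in the P11 mutants, and not unique ones 32.4% in the P29 mutants and 34.4% in the P11 mutants.

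All 24 libraries were fitted together with 1 mean per group in edgeR 4.0.16 (R 4.3.3, TMM scaling, filterByExpr, robust quasi-likelihood test, Benjamini-Hochberg adjustment over 12303 genes). The mutant change, the control change and their difference were tested in that fit. SE values are the log2 change divided by the square root of F. Alternatives were limma 3.58.1 (voom), DESeq2 1.42.0, other scaling and filters, a 1.5-fold test, a replicate block and leaving out each library. In simulated data for the mutant comparison, 67, 67 and 66 of 12076 genes were changed 1.5-, 2- and 4-fold. They were drawn from genes above 5 CPM in the P11 mutants. Of them 26.9%, 43.3% and 89.4% were recovered, with 5 false calls. The real comparison called 3895 of 12303 genes, and the adjustment depends on that share, so these rates need not hold there. In a single mutant library, 3 counts correspond to 1.191 to 1.516 CPM. The floor behind the fold bounds is lower in CPM, being 3 counts over all libraries of a group together. Intervals and floors reflect the error of counting alone. The 12 replicate pairs of the mutants were further apart than sampling noise, with a chi-square of 3.315 to 4.94 per gene, so none was counted as 1 sample.

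Genes were named by rule: Ift20, the largest changes among called genes without overlap (at 5 and at 100 CPM), within each list at most 4 members ranked by p, and the 10 smallest p values of the difference. Other genes were named where a list had few calls or to show a function, and these were chosen after their values, and for some their lost calls, were seen. Some genes that these rules select are not reported here. The members and lists were chosen with earlier results of these data known. Gene positions are from GENCODE vM21 (GRCm38) and promoter windows from RefSeq (GRCm38.p6).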

Additional observations from a re-analysis of the deposited data

Results flagged for a closer look

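Single libraries stood apart from the other 3 of their group in 32 of 470 groups of values tested (6.81%), where the gap to the nearest library exceeded Dixon's critical share of the group's range, and chance alone flags about 1 in 20 groups. Values are in CPM. P29 mutant replicate 1 was highest for Pmp22 (166), Cryaa (247.1), Bfsp2 (23.97) and Cpa3 (0.461). P29 mutant replicate 1 was lowest for Ccn1 (110.2), Cdh2 (8.759) and Abca8a (1.383). P29 mutant replicate 3 was highest for B2m (807.9). P29 mutant replicate 3 was lowest for Wdr35 (76.01). P29 mutant replicate 4 was highest for Crabp1 (3.527). P29 mutant replicate 4 was lowest for Kcnj13 (478.5) and Ift57 (56.43). P11 mutant replicate 1 was highest for Egr2 (0.4914), Mobp (0.4914) and Serpina3n (0.4914). P11 mutant replicate 1 was lowest for Pttg1 (42.26) and Vax2 (13.76). P11 mutant replicate 2 was highest for Cspg4 (22.24), Nr2f1 (37.07) and Il1b (1.308). P11 mutant replicate 3 was highest for Fth1 (572.2). P11 mutant replicate 3 was lowest for Jun (60.74). P11 mutant replicate 4 was highest for Sparc (2175), Fzd4 (179.9), Cat (99.08), Pmp22 (71.47), Hbb-bs (14990), Crabp1 (27.61) and Loxl1 (125.1). P11 mutant replicate 4 was lowest for Ccn2 (43.04) and Arntl (36.95). P29 mutant replicate 2 had the highest share of counts in the 10 most abundant genes, 24.47%, against 23.33% to 23.5% in the others. The values of Egr2, Mobp, Serpina3n, Il1b and Cpa3 stand for 1 to 3 counts in 1 library. The cause of these gaps was not tested.

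For 48 of 228 named genes the change with age differed between mutants and controls by the test of the difference (edgeR, adjusted p under 0.05). Over all tested genes the share was 2.63%. Some genes were named for a small p of this difference or after their values were seen, so the 2 shares are not comparable. Differences are given as the mutant change minus the control change on the log2 scale. Among lens genes, the difference was 1.23 for Cryab, 6.94 for Cryba1, 6.45 for Crygs, 6.13 for Cryaa, 6.80 for Crybb2, 5.51 for Crygb, 5.64 for Crygc, 7.51 for Cryba2, 6.49 for Crygd, 5.06 for Mip and 6.31 for Crybb3. Among vascular and myelin genes, the difference was 1.35 for Flt1, 3.26 for Plvap, 3.27 for Cdh5, 3.74 for Esam, 2.82 for Emcn, 0.88 for Acta2, 2.49 for Mbp and 7.13 for Mobp. Among immediate early genes, the difference was 0.85 for Fosb, 1.78 for Nr4a1, 1.60 for Nr4a2, 1.51 for Klf2, 1.80 for Atf3, 1.42 for Ier2, 1.60 for Zfp36 and 1.00 for Dusp1. Among genes of pigment, transport and the visual cycle, the difference was -0.27 for Rgr, 0.81 for Pmel, 0.84 for Tyrp1, 1.04 for Mlana, 0.39 for Slc6a6, 2.02 for Aqp1 and 0.49 for Trf. Among genes of matrix and BMP signalling, the difference was 0.36 for Col8a1, 1.12 for Ccn1, 1.61 for Nog, 0.78 for Id2 and 0.91 for Id3. Among other genes, the difference was 0.21 for mt-Nd1, 0.27 for Mt1, 1.33 for Xbp1, -0.90 for Atf4, 0.44 for Gnat1, 0.37 for Hbb-bs, 6.70 for Serpina3n, -1.96 for Pttg1 and 1.78 for Mkks. Fitted values of Mobp and Serpina3n rest on 1 count in the P11 mutants. The Mt1 call was lost without control P11 replicate 2 (adjusted p = 0.0518), mutant P11 replicate 2 (0.0615), control P29 replicate 3 (0.0745) or mutant P29 replicate 1 (0.0562). The mt-Nd1 call was lost without control P11 replicate 2 (0.0645) or 3 (0.077), mutant P11 replicate 4 (0.0779), control P29 replicate 4 (0.081) or mutant P29 replicate 2 (0.108) or 4 (0.0539). The Mkks call was lost without control P11 replicate 1 (0.11), mutant P11 replicate 1 (0.0885), 2 (0.0659) or 4 (0.0524), control P29 replicate 3 (0.0859) or 4 (0.0917), or mutant P29 replicate 1 (0.0694) or 3 (0.0821), in a fit of the compared groups alone (0.0533) and with no filter on low counts (0.0584).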

How the results depend on the processing

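Testing against a 1.5-fold change left 742 higher and 870 lower genes in mutants, 769 and 999 in controls, and 35 and 8 for the difference, a stricter question by construction. For the difference, a fit of the compared groups alone gave 186 higher and 109 lower genes, and voom 141 and 92. The cause was not tested. Leaving out 1 library at a time gave 1860 to 1897 higher and 1677 to 1709 lower genes in mutants, 1893 to 2022 and 1730 to 1826 in controls, and 136 to 205 and 98 to 214 for the difference, where 214 was without control P11 replicate 4 and 98 without control P29 replicate 3. Replicate numbers did not pair the libraries (correlations of deviations -0.0485 to 0.0419), and the replicate block gave 2011 and 1859 genes in mutants, 2039 and 1859 in controls, and 177 and 144 for the difference. Among the named genes the block ended 1 call, that of Boc in mutants (adjusted p = 0.0548). Some named genes were chosen after lost calls were seen, so the counts of kept calls that follow depend in part on that choice. Of 217 called mutant changes among 228 named genes, 198 kept their call under every alternative other than the 1.5-fold test, and 19 lost it under at least 1. Of 48 called differences, 38 kept it and 10 lost it, Rgr, Ccn1, Nog, Hbb-bs and Zfp36 with voom, Atf3, Ier2 and Mt1 with voom and without single libraries, and mt-Nd1 and Mkks without single libraries. The fit of the compared groups alone also ended the differences of Mkks (adjusted p = 0.0533) and Atf3 (0.0649), and no filter on low counts that of Mkks (0.0584). The mutant change of Ptgds lost its call with voom (adjusted p = 0.129), and uncalled changes passed for Tyrp1 with DESeq2 (0.024), Emcn with DESeq2 (0.0454), voom (0.0403) or without P11 mutant replicate 1 (0.0228), and Plvap with voom (0.0391) or without P11 mutant replicate 4 (0.0284). The uncalled Cdh5 change (0.02) was -0.035 with median-of-ratios factors, -0.035 with DESeq2 and -0.15 with voom, and ranged from -0.14 (without P29 mutant replicate 4) to 0.32 (without P29 mutant replicate 3) without single libraries. At 1978838 to 2519882 counts per library, genes of a few CPM are the least precise.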
